A study of Homo sapiens with 6 samples.

Results

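The genes described here are IL6, LIF, CXCL8, CXCL3, ICAM1 and CXCL12, all of the probes whose only gene symbol in the platform annotation is one of these names. There were 8 such probes among 14080 on the array: 1 each for IL6, LIF, CXCL8 and CXCL3, and 2 each for ICAM1 and CXCL12, written below as probe A and probe B. All 8 were measured on all 6 arrays. The first 5 genes are inflammatory, with AU-rich and short-lived mRNA, and the rule sets them against CXCL12, a chemokine that stromal cells make without stimulation.

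The arrays carried RNA of GM00156, a human cell line from the Coriell repository. The treated culture received emetine, an inhibitor of translation elongation, at 100 µg/ml for 10 h, and the control culture did not. Both then received the transcription inhibitor actinomycin D at 5 µg/ml. Harvests followed after 0, 10, 30 and 60 min and after 8 h, and the harvest at 60 min is called 1 h. Each of 5 two-colour arrays compared emetine-treated (Cy3) with untreated (Cy5) cells of the same harvest, and the remaining array held treated RNA of 0 min in both channels (self-self), from a harvest whose description names no actinomycin D.

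Each harvest had 1 array and no replicate, and the labels do not say whether the harvests came from separate cultures. Values are log2 ratios between the channels, where 1 is a 2-fold difference. The labels do not say which channel is the numerator, so values are called positive or negative, without a claim on which culture had more mRNA. The description of the 0 min array names treated RNA on both sides, against its channel names. The cell type is not in the labels, and ratios give no levels that could test it. Of 15 fibroblast markers 14 were measured, with mean ratios from -1.68 to 0.51 over the harvests and a median of -0.77. Of these 9 passed a limma adjusted p of 0.05 with a negative mean and 2 with a positive mean, while 25.3% of all genes were negative and 37.0% positive by that rule and the median of all genes was 0.14. Marker lists of other cell types had medians of 0.25 (B lymphocyte), 0.28 (T and NK cell), 0.08 (macrophage), 0.02 (endothelium) and 0.07 (epithelium).

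IL6 and LIF are cytokines of one family that signal through the shared receptor chain IL6ST. CXCL8 and CXCL3 are chemokines that draw neutrophils through the receptor CXCR2, and ICAM1 is the cell surface protein that holds leukocytes by their integrins. In stromal cells these genes are switched on by NF-kB and related factors, and AU-rich elements in their mRNA recruit proteins that lead to rapid decay. Blocks of translation are known to raise such mRNAs in many cell types. CXCL12 acts through the receptors CXCR4 and ACKR3, keeps stem cells and lymphocytes in place, and is made steadily by many stromal cells.

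The question put to these genes was how far the inflammatory members stood from CXCL12 on each array. All 6 probes of the inflammatory genes were positive at every harvest. CXCL12 gave 2 answers, since probe A stayed near 0 and probe B was negative at every harvest.

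The cytokine IL6 was at -0.09 on the self-self array. At the harvests of 0 min, 10 min, 30 min, 1 h and 8 h it stood at 3.01, 4.48, 4.28, 1.34 and 5.35. Its 8 h value was the highest of the 8 probes on that array, and its 0 min value the lowest of the 6 inflammatory probes. LIF, a cytokine that signals through LIFR, was at -0.04 on the self-self array and at 3.09, 4.30, 4.13, 0.67 and 4.33 in the same order. It had the lowest 1 h value of the 6. The 2 cytokines lay close together from 0 to 30 min, and IL6 was the higher at 1 h and 8 h.

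The chemokine CXCL8 was at 0.01 on the self-self array and at 3.96, 4.86, 3.37, 1.11 and 5.00 over the harvests. It was the only inflammatory gene whose 30 min value was below its 0 min value. CXCL3, a chemokine of the GRO group, was at 0.02 on the self-self array and at 4.17, 5.03, 5.23, 1.12 and 5.21. It was above CXCL8 on 5 of 5 harvest arrays, with a mean difference of 0.49 ± 0.77 (SD, n = 5). CXCL1, CXCL2 and CXCL3 are similar in sequence, so 1 probe may report several of them.

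Both probes of the adhesion gene ICAM1 gave like values. Probe A was at 0.12 on the self-self array and at 4.04, 4.13, 4.55, 1.13 and 4.23 over the harvests. Probe B was at 0.02 and then at 3.58, 4.45, 4.40, 1.12 and 3.75. They differed by 0.16 ± 0.33 (SD, n = 5 arrays), with probe A higher on 4 arrays and lower at 10 min.

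CXCL12 probe A was at 0.13 on the self-self array and at 0.16, 0.35, -0.02, 0.01 and 0.52 over the harvests. Probe B was at -0.03 and then at -1.40, -3.13, -3.54, -2.66 and -2.18. No harvest value of probe B overlapped with those of probe A or of the inflammatory genes, and its value farthest from 0 was at 30 min.

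**Figure D1:**
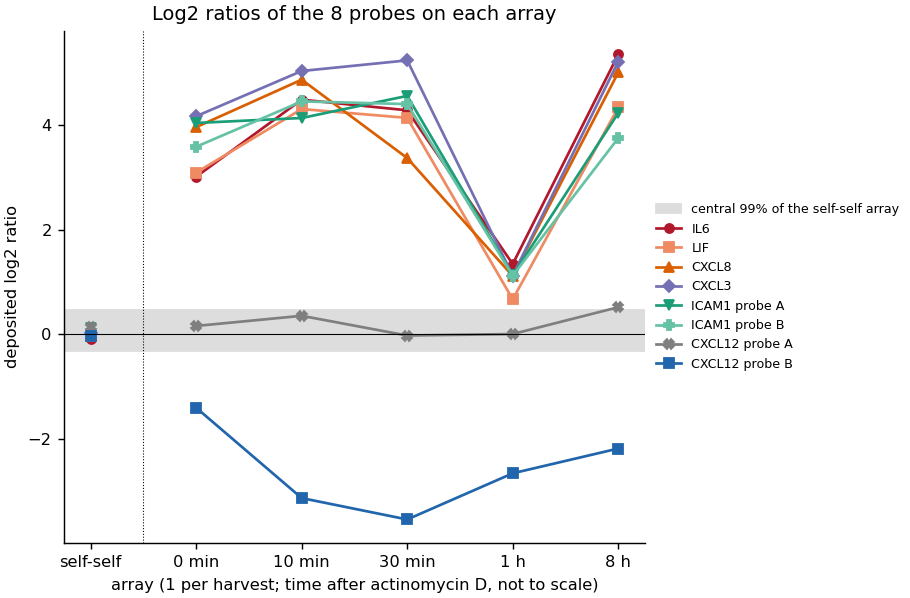
Deposited log2 ratio (y axis) of each of the 8 probes on the self-self array and at the 5 harvests (x axis, 1 array each, spacing not to scale). The grey band is the central 99% of the self-self array, from -0.32 to 0.47. The 6 inflammatory probes lie between 3.01 and 5.35 at 4 harvests and between 0.67 and 1.34 at 1 h, CXCL12 probe A stays near the band and probe B lies between -1.40 and -3.54.

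Set against the central 99% of the self-self array, which ran from -0.32 to 0.47, all 6 inflammatory probes were beyond it on the positive side at every harvest, and 10.5% of 13091 probes were. CXCL12 probe B was beyond it on the negative side at every harvest, as were 13.1% of probes. CXCL12 probe A left the range only at 8 h, where 33.5% of probes were beyond it on the positive side. After each array was scaled to equal spread, the self-self range widened and none of the 6 inflammatory probes was beyond it at all 5 harvests. Each of them fell inside it at 1 h only. The harvest arrays had robust SDs (scaled median absolute deviations) from 0.44 to 0.92, and the self-self array 0.12. In these units the 6 probes stood 1.17 to 2.45 above the array's median at 1 h, and at least 4.12 at the other harvests.

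The mean over the 5 harvests was fitted with limma to all 13151 probes measured at every harvest, beside a slope on time. Of the 8 probes 6 passed an adjusted p of 0.05 with a positive mean and 1 with a negative mean, where 35.0% and 26.3% of all probes did. Without the 0 min array, whose labels conflict, the counts were also 6 and 1. The members were chosen with these means known, so the counts are a description and not independent evidence. CXCL3 had the highest mean, 4.15 (SE 0.56, limma adjusted p = 0.000678). The others were IL6 at 3.69 (SE 0.47), CXCL8 at 3.66 (SE 0.51), ICAM1 at 3.62 (SE 0.45) and 3.46 (SE 0.44), and LIF at 3.31 (SE 0.50), with limma adjusted p from 0.000573 to 0.00105. CXCL12 probe B was at -2.58 (SE 0.28, limma adjusted p = 0.000499) and probe A at 0.20 (SE 0.12, limma adjusted p = 0.187). Probe B and 9 of the 14 measured fibroblast markers passed on the negative side, and a link between them was not tested. Each p measures the spread around a line over 5 arrays.

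With probes of a gene averaged, the order of the means was CXCL3, IL6, CXCL8, ICAM1, LIF and CXCL12. From CXCL3 down to LIF no neighbours in this order differed beyond their spread over arrays. Their mean differences were 0.46 ± 0.62, 0.03 ± 0.71, 0.12 ± 0.80 and 0.23 ± 0.42 (SD, n = 5), and the higher gene was higher on 3 of 5 arrays in each pair. Farther apart in the order, CXCL3 was above LIF on 5 of 5 arrays, by 0.85 ± 0.27 (SD, n = 5).

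The median of the 5 inflammatory genes minus CXCL12 was -0.05 on the self-self array with the CXCL12 probes averaged. From the 0 min to the 8 h harvest it was 4.43, 5.87, 6.06, 2.45 and 5.83, a mean of 4.93 ± 1.53 (SD, n = 5). The gap was positive on 5 of 5 harvests, but its size turned on the probe. Against CXCL12 probe A alone it ran from 1.12 at 1 h to 4.48 at 8 h, with a mean of 3.54 ± 1.39 (SD, n = 5). Against probe B alone it ran from 3.78 at 1 h to 7.82 at 30 min, with a mean of 6.32 ± 1.76 (SD, n = 5). No p-value is given for the gap, since its members were chosen with results known.

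The disagreement of the CXCL12 probes was set against that of other genes. Of 1533 genes with more than 1 measured probe, 14, or 0.913%, had a range of probe means at least as wide as the 2.78 of CXCL12, CXCL12 included. The median range was 0.33, and ICAM1 had 0.16. The annotation gives both CXCL12 probes the same sequence record, so it does not tell which part of the gene each reports. Which probe follows CXCL12 mRNA was not tested.

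**Figure D2:**
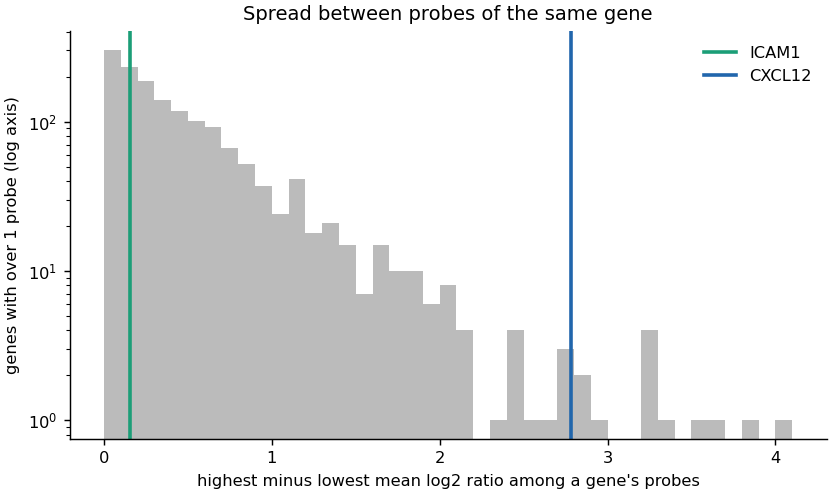
Number of genes (y axis, log scale) by the difference between the highest and the lowest mean log2 ratio among a gene's probes (x axis, log2 units), over 1533 genes with more than 1 probe. Vertical lines mark ICAM1 at 0.16, near the bulk of genes, and CXCL12 at 2.78, in the far tail.

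The promoters of the inflammatory genes are shown because their ratios lay together, and that of CXCL12 because it did not lie with them. RefSeq windows from 250 bases before to 50 bases after the gene start (GRCh38.p14) were matched for IL6, CXCL8, CXCL3, ICAM1 and CXCL12. LIF is named only. IL6 lies on chromosome 7, LIF on 22, CXCL8 and CXCL3 on 4, ICAM1 on 19 and CXCL12 on 10. The last 200 bases before each start are printed 5′ to 3′ on the gene's strand, with matches to GGNNNTTCC, a form of the NF-kB site, on either strand in capitals.
IL6, chr7:22727000-22727199, plus strand: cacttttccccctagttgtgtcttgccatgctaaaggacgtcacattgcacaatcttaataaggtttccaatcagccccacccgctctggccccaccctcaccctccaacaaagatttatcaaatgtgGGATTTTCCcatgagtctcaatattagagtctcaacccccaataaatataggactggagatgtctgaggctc
CXCL8, chr4:73740369-73740568, plus strand: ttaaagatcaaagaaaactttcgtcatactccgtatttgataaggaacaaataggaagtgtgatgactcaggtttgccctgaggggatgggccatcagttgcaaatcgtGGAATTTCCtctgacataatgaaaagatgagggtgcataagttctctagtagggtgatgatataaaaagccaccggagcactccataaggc
CXCL3, chr4:74038690-74038889, minus strand: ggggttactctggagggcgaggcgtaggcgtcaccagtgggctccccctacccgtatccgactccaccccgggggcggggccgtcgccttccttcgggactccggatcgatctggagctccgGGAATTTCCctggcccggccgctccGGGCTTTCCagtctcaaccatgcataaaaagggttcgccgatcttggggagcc
ICAM1, chr19:10270920-10271119, plus strand: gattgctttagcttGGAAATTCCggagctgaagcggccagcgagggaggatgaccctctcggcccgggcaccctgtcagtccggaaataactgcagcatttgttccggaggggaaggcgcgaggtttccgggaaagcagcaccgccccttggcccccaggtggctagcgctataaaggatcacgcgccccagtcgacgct
CXCL12, chr10:44385098-44385297, minus strand: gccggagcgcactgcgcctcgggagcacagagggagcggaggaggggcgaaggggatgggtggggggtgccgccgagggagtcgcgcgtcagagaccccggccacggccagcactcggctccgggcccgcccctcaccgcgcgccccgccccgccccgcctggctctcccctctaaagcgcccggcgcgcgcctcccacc

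The windows of IL6, CXCL8, CXCL3 and ICAM1 held GGNNNTTCC, and that of CXCL12 did not. The match began 72 bases before the start in IL6, 91 in CXCL8 and 186 in ICAM1, while CXCL3 had matches at 78 and 53 bases. Of 35116 RefSeq windows of this length, which include several for some genes, 20.1% held the motif. It was written with known sites of these genes in mind, so its presence there is no independent result. The AP-1 motif TGANTCA was found in CXCL8 alone of the 5 windows, 137 bases before the start, and in 7.71% of all windows. The C/EBP motif TTNNGNAA was found in IL6 alone of the 5, at 155 bases, and in 36.8% of windows. The TATA box TATAAA was found in CXCL8 and ICAM1, at 31 and 30 bases, and in 11.5% of windows. None of the 4 motifs overlapped another in these windows, and a match is not evidence that a factor binds. Sites that depart from these letters were not searched, so the lack of a match does not show that a site is absent. Over the 200 bases printed, G and C made up 79.5% in CXCL12, 66.5% in CXCL3, 62.0% in ICAM1, 46.5% in IL6 and 42.0% in CXCL8.

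**Figure D3:**
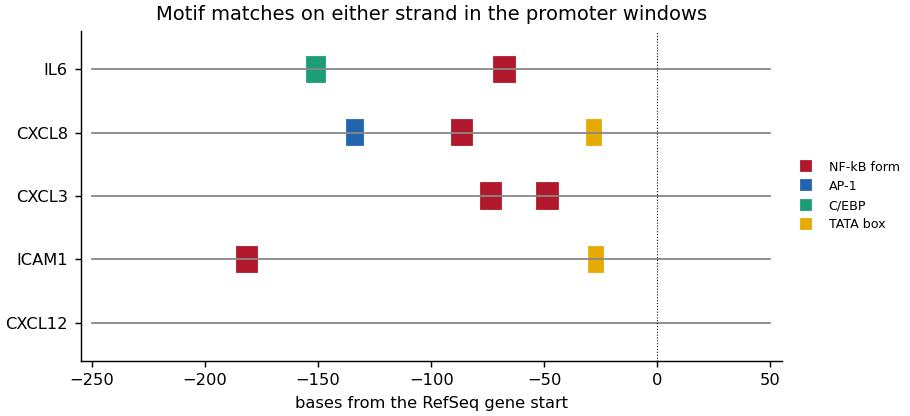
Matches to 4 motifs (coloured boxes, drawn to scale, either strand) in the promoter windows of 5 genes, by distance in bases from the RefSeq gene start (x axis). The NF-kB form appears in IL6, CXCL8, CXCL3 and ICAM1, and no box is drawn for CXCL12.

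On the 1 h array the 6 inflammatory probes lay at 0.67 to 1.34, from 15.8% to 27.9% of the mean of their 30 min and 8 h values. CXCL12 probe B kept 92.8% of its neighbours' mean there. Other probes with high ratios were also low at 1 h, though mostly less so. Among 163 probes with a neighbour mean above 3, the median share was 33.9%, with 5th and 95th percentiles of 19.5% and 46.6%. All 6 inflammatory probes lay below that median, and LIF, at 15.8%, below the 5th percentile. Among 109 probes with a neighbour mean below -2 the median share was 77.0%. The highest value of any probe on that array was 2.99, against 5.94 to 7.14 on the other harvest arrays. Without the 1 h array the means were 4.91 ± 0.50 for CXCL3, 4.30 ± 0.77 for CXCL8, 4.28 ± 0.96 for IL6 and 3.96 ± 0.59 for LIF (SD, n = 4). ICAM1 was then at 4.24 ± 0.22 and 4.04 ± 0.44, and CXCL12 at 0.25 ± 0.23 and -2.56 ± 0.96 (SD, n = 4).

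The place of a probe within its array does not depend on the array's scale. At 0, 10 and 30 min and 8 h the 6 inflammatory probes were all above the 99th percentile of the measured probes. CXCL3 took places 10, 12, 14 and 23 from the top on these 4 arrays, among 13546 to 13713 measured probes. IL6 took places 51, 27, 47 and 21. At 1 h the places were lower even so, with percentiles of 98.9 for IL6, 97.5 and 97.4 for ICAM1, 97.4 for CXCL3, 97.3 for CXCL8 and 89.5 for LIF. CXCL12 probe B took places 35, 28, 11, 47 and 122 from the bottom over the 5 harvests. Probe A lay between the percentiles of 41.9 and 68.4 at the harvests. On the self-self array the 8 probes lay between the percentiles of 20.1 and 83.8.

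**Figure D4:**
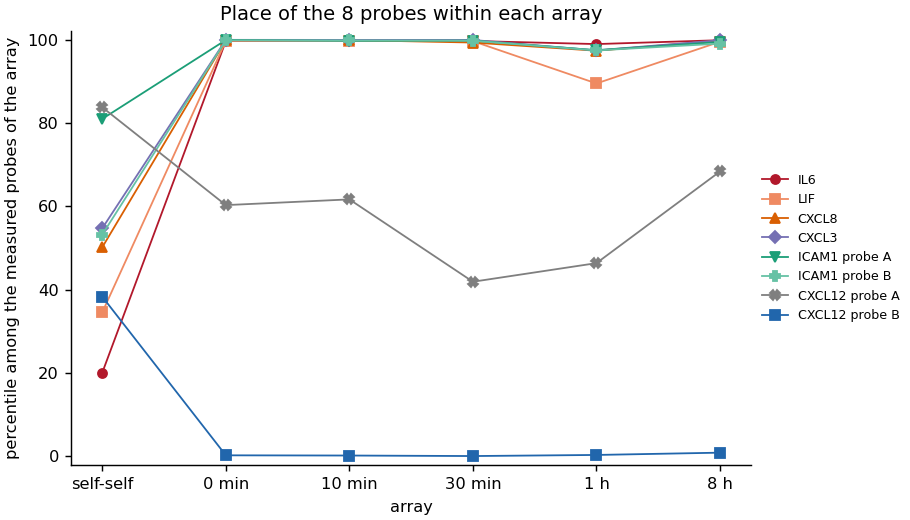
Percentile (y axis) of each of the 8 probes among the measured probes of each array (x axis). The inflammatory probes sit at the top of the harvest arrays, with LIF at 89.5 at 1 h, CXCL12 probe B sits at the bottom and CXCL12 probe A in the middle, while on the self-self array all 8 are scattered.

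In units of each array's robust SD the inflammatory genes stood farthest out at 0 min. CXCL3 was 9.33, 5.38, 6.51, 2.03 and 5.87 robust SDs above the array's median over the 5 harvests. IL6 was at 6.71, 4.78, 5.29, 2.45 and 6.03, and LIF at 6.89, 4.59, 5.10, 1.17 and 4.85. CXCL12 probe B was farthest out at 1 h, at -5.13, and stood at -3.30, -3.51, -4.71 and -2.70 on the other 4. The order of the harvests for a gene thus differed between log2 units and units of spread.

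The change of the ratio after transcription was stopped was asked with the slope on log2(1 + min / 10). No slope of the 8 probes passed an adjusted p of 0.05 in limma, and none did among all probes (0% called). The 8 unadjusted p-values ran from 0.333 to 0.932, while 14.2% of all probes had an unadjusted p under 0.05. The slopes were 0.25 (SE 0.25) for IL6, 0.06 (SE 0.26) for LIF, 0.05 (SE 0.26) for CXCL8 and 0.03 (SE 0.29) for CXCL3. They were -0.06 (SE 0.24) and -0.11 (SE 0.23) for ICAM1 and 0.05 (SE 0.07) and -0.02 (SE 0.15) for CXCL12. Without the 1 h array the slope of IL6 was 0.34 (limma adjusted p = 0.0498), in a range of adjusted p from 0.0498 to 1.00 over its alternatives, and 3.98% of all probes passed on that side. With arrays scaled to equal spread the slope of IL6 was -0.06, and without the 8 h array, on unscaled ratios, it was -0.50, so its sign changed with either choice.

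Between 0 min and 8 h the log2 ratio of IL6 differed by 2.33. With the sign kept, 98.9% of probes had a lower value of 8 h minus 0 min. LIF differed by 1.24, CXCL8 by 1.04, CXCL3 by 1.04 and the ICAM1 probes by 0.19 and 0.17, all with the 8 h value higher. CXCL12 probe B differed by -0.78 and probe A by 0.36. The median over all probes was 0.04. These differences rest on 2 arrays with robust SDs of 0.44 and 0.86 and have no test.

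The genes most like each member were taken by the root mean square difference of log2 ratios over the 6 arrays, among the single-symbol probes of other genes. The nearest to IL6 were JUNB (0.26), BCL6 (0.32) and CYP3A4 (0.35). The nearest to LIF were HM13 (0.27), ICAM1 (0.38) and AFF1 (0.40), and to CXCL8 they were EGR3 (0.32), H4C5 (0.34) and TCIM (0.57). The nearest to CXCL3 were NFKBIE (0.20), CCNL1 (0.31) and FOS (0.31), and to ICAM1 they were EGR1 (0.15), TNFAIP2 (0.20) and H4C8 (0.30). LIF and ICAM1 thus lay close together, at place 2 and place 7 in each other's order of 8724 genes. The inflammatory members all lay within the first 58 places of one another. This measure depends on the level of the ratios, and the members were chosen with their means known. Their closeness is therefore a description and no independent result. With the CXCL12 probes averaged the nearest were TIMM17A, ARPC5 and CDK5. Taken alone, a choice made after the values were seen, probe B was nearest to MALL (0.26), STX4 (0.27) and DIRAS3 (0.36), and probe A to INVS (0.05), PALLD (0.07) and OSBPL3 (0.08).

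Other ligands of this kind were described on a list of 39 inflammatory cytokines, chemokines and adhesion molecules, of which 27 genes were measured. Of these, 17 passed with a positive mean, 2 passed with a negative mean and 8 missed the threshold, and the list median was 0.64. The positive count was 14 with arrays centred, without the 10 min array or without the 30 min array, and 18 without the 1 h array. The shares over all 8748 genes were 37.0% positive and 25.3% negative, with a median of 0.14, and each list below is set against these. The chemokine CCL20 was at 2.87 (SE 0.41), CXCL1 at 2.70 (SE 0.32), the monocyte chemokine CCL2 at 2.68 (SE 0.31), the macrophage growth factor CSF1 at 2.50 (SE 0.30) and IL1B at 2.43 (SE 0.26). All 5 lay below the 5 inflammatory members. The 2 negative genes, named after their values were seen, were IL11, an IL6 family cytokine, at -1.66 (SE 0.17) and CXCL2 at -0.52 (SE 0.12).

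The GRO chemokines, described together after their values were seen, did not lie together. CXCL1 was at 2.86, 3.73, 2.65, 1.11 and 3.17 over the harvests, on the side of CXCL3. CXCL2 was at -0.13, -0.72, -0.62, -0.51 and -0.62. In the IL6 family IL11 was at -1.52, -2.18, -1.74, -1.02 and -1.84, against IL6 and LIF, which were positive at every harvest.

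Receptors and transducers of the IL6 family had 6 genes positive, 1 negative and 6 that did not pass, of 13 measured, with a median of 0.26. That is 46.2% positive, against 37.0% of all genes. SOCS3, the feedback inhibitor of this pathway, was at 1.55 (SE 0.26), IL6ST at 1.07 (SE 0.16), IL6R at 0.95 (SE 0.15), LIFR at 0.61 (SE 0.11) and the transcription factor STAT3 at 0.53 (SE 0.12). The negative gene was PIAS3, which inhibits STAT3, at -0.41 (SE 0.15, limma adjusted p = 0.0421), and its call was lost without the 0 min, 10 min or 8 h array. Its adjusted p was then 0.0817, 0.106 and 0.0953. Of 9 measured chemokine receptors 2 were positive, CCR6 at 0.64 (SE 0.15) and CCR2 at 0.43 (SE 0.13), and 7 did not pass, so 22.2% were positive, below the 37.0% of all genes. CCR2 did not pass with arrays centred (limma adjusted p = 0.0507), without the 10 min array (0.0609) or without the 30 min array (0.0723). The receptors of CXCL12 did not pass, with CXCR4 at 0.34 (SE 0.15) and ACKR3 at 0.02 (SE 0.11).

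The ICAM family with its integrin partners and cytoskeletal linkers had 3 genes positive, 2 negative and 4 that did not pass, of 9, with a median of -0.04. The positive share of 33.3% was near the 37.0% of all genes. ICAM4 was at 1.41 (SE 0.27) and ICAM2 at 0.67 (SE 0.15), while ICAM3 was at -1.0 (SE 0.15). The linkers of membrane proteins to actin also lay on both sides, with EZR at 1.33 (SE 0.15) and MSN at -1.31 (SE 0.15). The 13 measured chemokines and growth factors made without acute stimulation, which are the closest company for CXCL12, had a median of -0.11. Of these 3 were positive, or 23.1% against 37.0% of all genes, 1 was negative and 9 did not pass. MIF was at 0.68 (SE 0.14), the stem cell factor KITLG at 0.57 (SE 0.13), CCL19 at 0.46 (SE 0.14) and the hepatocyte growth factor HGF at -0.39 (SE 0.11). CCL19 did not pass with arrays centred (limma adjusted p = 0.0502), without the 10 min array (0.0652) or without the 30 min array (0.0637), and HGF did not pass without the 30 min array (0.0875). The 13 gene means ran from -0.39 to 0.68. CXCL12 probe A, at 0.20, lay within that range. Probe B, at -2.58, and the average of both probes, at -1.19, lay below it.

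Of the NF-kB subunits, kinases and inhibitors, 11 of 14 measured genes were positive, none negative and 3 did not pass, with a median of 1.23. That is 78.6% positive, against 37.0% of all genes. The inhibitors TNFAIP3, NFKBIE and NFKBIA were at 5.11 (SE 0.68), 4.11 (SE 0.52) and 3.77 (SE 0.53), and the subunits REL and RELB at 2.73 (SE 0.26) and 2.18 (SE 0.25). These values were known when the list was written. With arrays centred or scaled, 1 and 2 genes of this list passed on the negative side. Proteins that bind AU-rich elements had 4 genes positive, 2 negative and 4 that did not pass, of 10, with a median of 0.16 and a positive share of 40%, near the 37.0% of all genes. ZFP36 and ZFP36L1, which speed the decay of AU-rich mRNA, were at 0.72 (SE 0.15) and 1.16 (SE 0.18), and TIAL1 at 0.44 (SE 0.12). HNRNPA1 and YBX1 were at -1.25 (SE 0.17) and -1.02 (SE 0.13). TIAL1 did not pass without the 8 h array (limma adjusted p = 0.0805).

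**Figure D5:**
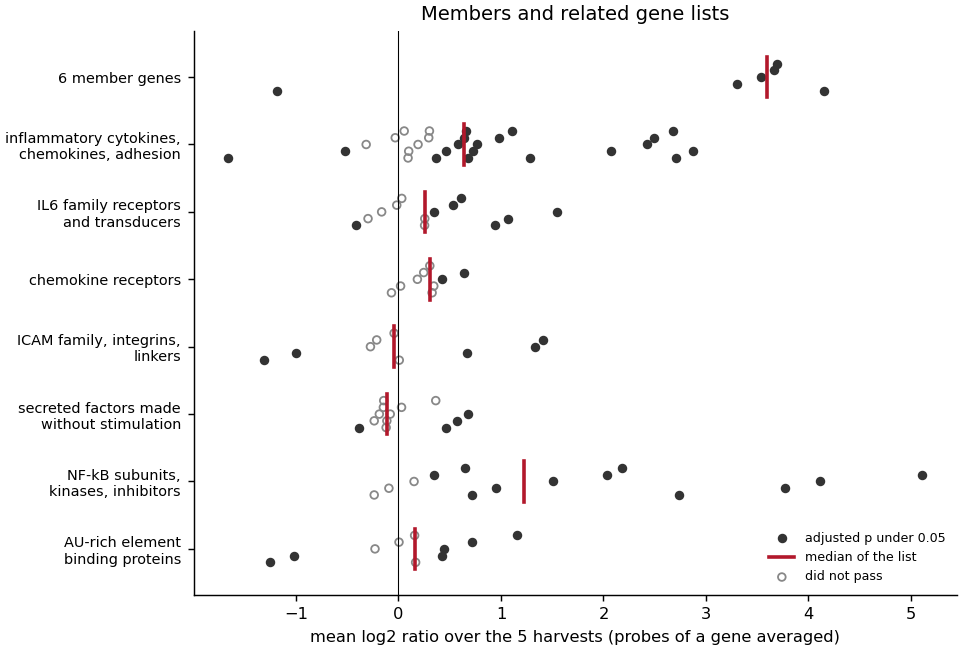
Mean log2 ratio over the 5 harvests (x axis) of each measured gene of the 6 members and of 7 related lists (y axis), probes averaged. Filled points passed a limma adjusted p of 0.05, open points did not, and red bars are medians. The 5 inflammatory members lie between 3.31 and 4.15 and are reached only by NF-kB inhibitors among the lists.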

How the data were processed

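The deposited table holds log2 ratios, 1 column per array. Per the labels' protocols, the authors subtracted background, divided channel intensities, normalised each slide with housekeeping genes and discarded ratios with a quality value below 0.5. A shift of those housekeeping genes would move a whole array. The log base came from the values. For 99.5% to 100% of them, 2 to the power of the value, times 10000, lay within 0.05 of a whole number. The numerator is not given in the sources used here. No centring between arrays was found, with medians from 0.01 to 0.15.

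On each array 333 to 534 probes share 1 identical value. They were set to missing, a choice made after seeing the data, leaving 13091 probes on all 6 arrays and 13151 on the 5 harvests. Probe names came from the platform annotation, updated by gene ID (11304 probes with 1 symbol, 446 with several, 2330 with none; 11282 matched the RefSeq gene table).

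limma 3.58.1 (R 4.3.3) modelled each probe by its mean and by a slope on log2(1 + min / 10) over 5 arrays (3 residual degrees of freedom), two-sided, with Benjamini-Hochberg adjustment over all probes or all genes. The scripts were tested on simulated data. Members, lists, motifs and tests were chosen with earlier results of these data known. Named were all member probes, up to 5 genes per list that passed with the largest mean in size, and the 3 genes nearest to each member. Alternatives changed zero, spread, filter, moderation, time scale and arrays.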

Additional observations from a re-analysis of the deposited data

Results flagged for a closer look

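At 1 h CXCL3 was at 1.12, ICAM1 probe A at 1.13 and ICAM1 probe B at 1.12, each far below the other 4 harvests of its probe. The gap to the nearest harvest was 0.740, 0.849 and 0.740 of the whole range, past Dixon's limit of 0.71 for 5 values. The 5 values are different times, and chance alone passes this limit in about 1 of 20 sets. Over all probes 8.11% passed it, and in 0.760% it was a low 1 h value. Among 163 probes with a 30 min and 8 h mean above 3 that share was 14.7%.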

How the results depend on the processing

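The counts of member probes that passed for the mean, 6 positive and 1 negative, were the same under every alternative run, and so was the sign of each of these 7 means. With probes averaged CXCL12 was at -1.19, against 0.20 for probe A. The gap between the inflammatory median and CXCL12 ran from 3.54 to 6.35 over its alternatives, the comparisons with 1 probe having been added after seeing the data, and from 4.65 to 5.55 when 1 array was left out. Scaled to equal spread, 0 inflammatory probes were beyond the self-self range at all 5 harvests, in place of 6, each falling inside it at 1 h only. Slopes had no settled sign. With scaling they were -0.061 for IL6, -0.23 for LIF, -0.31 for CXCL8, -0.35 for CXCL3 and 0.064 for CXCL12 probe B. With time as the order of harvests they were -0.11 for LIF, -0.17 for CXCL8 and -0.18 for CXCL3, and with minutes 0.0011 and 0.00022 for ICAM1 probes A and B and 0.00091 for CXCL12 probe B. With probes averaged the slope of CXCL12 was 0.013. With 1 array left out slopes ran from -0.50 to 0.36 for IL6, -0.73 to 0.16 for LIF, -1.03 to 0.18 for CXCL8 and -0.88 to 0.14 for CXCL3. They ran from -0.83 to 0.026 for ICAM1 probe A, -0.089 to 0.071 for CXCL12 probe A and -0.47 to 0.25 for probe B. Positive slope calls ranged from 0 to 1, the 1 being IL6 without the 1 h array. Ranked by Pearson correlation, 0 or 1 of the 3 genes most like each member were shared with those named, and without the 1 h array 1 to 3 were.

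Small list counts moved. Centred arrays gave 2 negative IL6 family genes, 1 positive chemokine receptor and 1 negative NF-kB gene. Scaled arrays gave 3, 4, 3 and 2 negative genes for the IL6 family, ICAM family, unstimulated secreted factors and NF-kB lists. Leaving out 1 array gave 0 to 1 negative IL6 family genes, 1 to 4 positive chemokine receptors and 0 to 1 negative secreted factors. The cause was not tested. No paired analysis was possible because each harvest has 1 array. The number of arrays limits precision.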

Other observations

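PTGS2 and CCL7, genes of the inflammatory list not named above, were picked after their values were seen. They do not stand for the rest of that list. PTGS2, the inducible cyclooxygenase, was at 0.79, 2.35, 1.37, 0.37 and -1.06 from the 0 min to the 8 h harvest, so its side changed between 1 h and 8 h. The chemokine CCL7 was at 0.05, 0.41, 0.17, -0.02 and 1.73. Both counted as positive, with limma adjusted p for the mean of 0.0351 for PTGS2 and 0.0386 for CCL7. That of PTGS2 reached 0.219 over its alternatives. Among the AU-rich element binding proteins ZFP36L1 was at 0.64, 0.57, 1.19, 0.62 and 2.78. None of the 3 had a slope that passed in limma (adjusted p = 0.156, 0.177 and 0.117).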
